A study of Mus musculus with 11 samples.

Results

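The miR-26 family on this array consists of 2 microRNAs (miRNAs), mmu-miR-26a-5p and mmu-miR-26b-5p (below without the species prefix), which were taken by their exact names from 1247 mouse miRNAs measured on 11 one-colour Agilent arrays. Each array was hybridised with RNA of sorted GFP-positive macrophages from the hearts of Cx3cr1GFP/+ knock-in mice aged 2 to 3 months, in which GFP stands in for 1 copy of the fractalkine receptor gene in every group. Ly6clow/CX3CR1high macrophages were taken 7 days (3 arrays) and 30 days (3 arrays) after cryoinjury, a freezing lesion that models myocardial infarction, and from unoperated hearts (day 0, 2 arrays). Only day 3 (3 arrays) supplied Ly6chigh/CX3CR1low macrophages, so each contrast that involves it mixes time with population, and these cannot be told apart. Replicates are labelled as biologically independent, without word on pooling of hearts. Day 30 replicates 2 and 3 differed by a median of 0.06 on the log2 scale, less than the scanner's own error and against 0.249 to 1.18 in the other 9 pairs of replicates. Their mean therefore entered as 1 sample, for 10 samples in all.

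miR-26 miRNAs are conserved across vertebrates and are processed from introns of genes for small phosphatases that act on the tail of RNA polymerase II (Ctdsp1, Ctdsp2 and Ctdspl). Mature miR-26 guides Argonaute to messages that match its seed, the bases near its 5′ end that pair with targets. Known targets in mouse or human cells include Ezh2, a histone methyltransferase, and Smad1, a mediator of BMP signalling through which miR-26a restrains vessel growth in the infarcted mouse heart. Myc represses both miR-26a and miR-26b in lymphoma cells.

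The sequences are shown because both members carry the same seed and differ in so few bases that an array probe for one could also bind the other. Capitals mark the seed, bases 2 to 8 counted from the 5′ end, in sequences from RefSeq (build GRCm38.p6), where both members and all 3 passenger arms on the array were matched.
miR-26a-5p: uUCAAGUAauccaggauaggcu
miR-26b-5p: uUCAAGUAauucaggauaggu
miR-26a-1-3p: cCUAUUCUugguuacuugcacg
miR-26a-2-3p: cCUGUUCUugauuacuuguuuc
miR-26b-3p: cCUGUUCUccauuacuuggcuc
Over the 21 positions that the members share, 19 bases were identical. With positions counted from 1 at the 5′ end and miR-26a-5p given first, the differences were C11U and C21U, and miR-26a-5p has 1 further base at its 3′ end. Of 1679 mature mouse miRNAs in the RefSeq table, only these 2 had the seed UCAAGUA, and both were on the array. How far each probe also reads the other member was not tested.

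miR-26a-5p comes from 2 loci and miR-26b-5p from 1, as the hairpins show, in which capitals mark the 2 mature arms.
Mir26a-1: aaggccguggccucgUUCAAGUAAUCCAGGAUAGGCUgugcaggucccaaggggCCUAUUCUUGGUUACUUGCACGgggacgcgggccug
Mir26a-2: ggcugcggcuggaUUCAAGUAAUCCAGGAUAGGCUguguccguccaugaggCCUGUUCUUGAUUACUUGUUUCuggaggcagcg
Mir26b: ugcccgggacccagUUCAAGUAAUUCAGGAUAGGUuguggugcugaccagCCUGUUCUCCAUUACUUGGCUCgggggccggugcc
Mir26a-1 lies on the plus strand of GRCm38.p6 at chr9:119031796-119031885, inside Ctdspl. Mir26a-2 lies on the plus strand at chr10:126995530-126995613, inside Ctdsp2. Mir26b lies on the plus strand at chr1:74394310-74394394, inside Ctdsp1, and each host gene runs on the same strand. The 2 miR-26a loci give the same mature 5p sequence, so the array cannot tell them apart, whereas their 3p arms differ.

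The arrays differed widely in brightness, and this touches every value below. Brightness, taken as the 75th percentile over the 126 miRNAs that every array detected, lay between 55.7 and 163 scanner units on day 0 arrays, between 805 and 1607 on day 3 arrays, between 114 and 323 on day 7 arrays and between 1453 and 2304 on day 30 arrays. Levels are therefore given as log2 of the signal divided by that percentile of the same array, so that 0 means a signal equal to it. Relative to day 0 their median change was -0.77 in day 3, -0.21 in day 7 and -1.06 in day 30 macrophages. Relative to day 3 it was 0.63 in day 7 and -0.49 in day 30 macrophages, and day 30 macrophages had -0.57 relative to day 7. In sorted cells measured in bulk, fewer cells that carry a miRNA and less of it per cell cannot be told apart. Precision is limited by the small number of arrays.

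miR-26a-5p, the member with 2 loci, was detected on 11 of 11 arrays and stayed within a range of 1.89 on the log2 scale over the 10 samples. Its level was 0.64 and -0.30 at day 0, 0.17, -0.15 and 0.05 at day 3, -0.17, -0.91 and -0.29 at day 7, and 0.98 and 0.60 at day 30. Both day 30 samples lay above every sample of day 3 and day 7, and 1 of the 2 day 0 samples lay between the day 30 samples. From highest to lowest, the group means were 0.79 ± 0.27 at day 30 (SD, n = 2), 0.17 ± 0.67 at day 0 (n = 2), 0.03 ± 0.16 at day 3 (n = 3) and -0.46 ± 0.40 at day 7 (n = 3). No neighbours in this order differed beyond their spread (limma adjusted p = 0.292, 0.81 and 0.321). The moderated F test across the 4 groups did not pass either (limma adjusted p = 0.107), in a fit where 78.9% of 369 tested miRNAs passed it. It did pass under 9 of 15 other settings, among them slide as a block (adjusted p = 0.0276), the replicate number as a block (0.0299) and no scaling (0.00233). It also passed without day 0 replicate 1 (0.0308) or replicate 2 (0.0288).

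miR-26b-5p was also detected on 11 of 11 arrays but ranged over 4.29 on the log2 scale. Its level was -1.79 and -3.20 at day 0, -0.55, -1.19 and -0.76 at day 3, -2.28, -4.25 and -2.35 at day 7, and 0.03 and -0.29 at day 30. Day 30 and day 3 samples all lay above all day 0 and day 7 samples, and the lowest value belonged to day 7 replicate 2. The means ran from -0.13 ± 0.23 at day 30 (n = 2) through -0.83 ± 0.33 at day 3 (n = 3) and -2.49 ± 0.998 at day 0 (n = 2) to -2.96 ± 1.12 at day 7 (n = 3). Of these neighbours, day 3 and day 0 differed (limma adjusted p = 0.0378), whereas day 30 and day 3 (adjusted p = 0.415) and day 7 and day 0 (adjusted p = 0.642) did not differ beyond their spread. The F test across the 4 groups passed (limma adjusted p = 0.00459), though not under quantile normalization (0.0536) or the highest floor (0.0531).

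**Figure D1:**
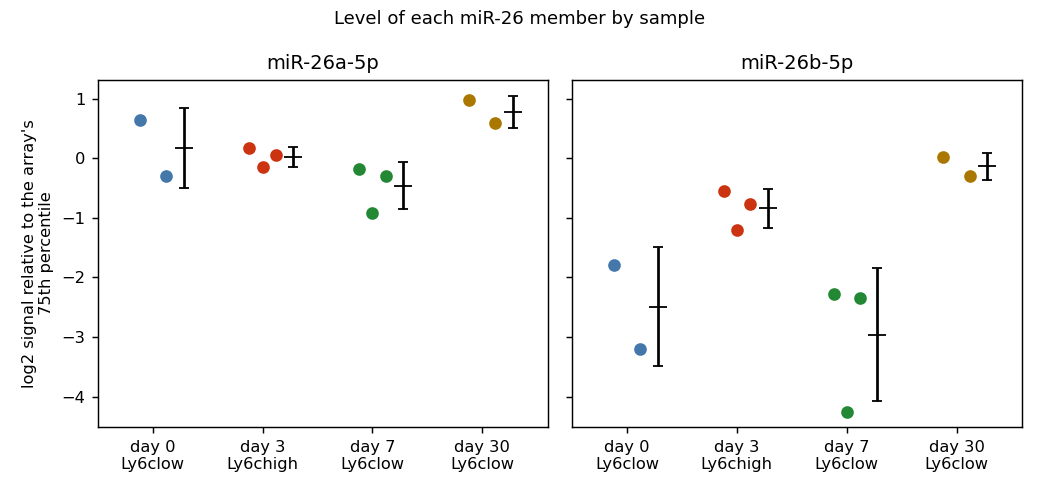
Level of miR-26a-5p (left) and miR-26b-5p (right) as log2 signal relative to the array's 75th percentile, for the 10 samples in 4 groups. Points are samples and the bars give mean and SD. miR-26a-5p stays between -0.91 and 0.98, while miR-26b-5p lies between -4.25 and -1.79 at day 0 and day 7 and between -1.19 and 0.03 at day 3 and day 30.

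The unscaled signals show how close the dim arrays came to the scanner's limit. miR-26a-5p gave 45.3 to 4539 scanner units over the 11 arrays with a scanner error of 7.48% to 8.11% of its signal. miR-26b-5p gave 6.07 units on day 0 replicate 2 and 5.96 on day 7 replicate 2, with scanner errors of 19.2% and 17.7%. On the other 9 arrays it gave 47.4 to 2357 units with errors of 7.27% to 7.97%. Both low signals were flagged as detected, and they stand on the dimmest array of their group.

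The comparison of day 3 with day 0 set Ly6chigh/CX3CR1low macrophages after injury against Ly6clow/CX3CR1high macrophages of unoperated hearts. Only miR-26b-5p of the 2 members passed in it, and the difference between them is given with their ratio. miR-26b-5p rose, with a mean level of -0.83 ± 0.33 at day 3 (n = 3) and -2.49 ± 0.998 at day 0 (n = 2), a log2 change of 1.66 (SE 0.62, 3.16-fold, limma adjusted p = 0.0378), and the groups did not overlap. miR-26a-5p averaged 0.03 ± 0.16 at day 3 and 0.17 ± 0.67 at day 0, a log2 change of -0.15 that did not pass (95% interval -1.12 to 0.82, limma adjusted p = 0.81). In this comparison 55.3% of all tested miRNAs passed, 16.3% as higher and 39% as lower, and groups did not overlap for 65.6%, so that 1 passing member of 2 is near the background. The miR-26b-5p call was lost without day 0 replicate 2 (log2 change 0.95, adjusted p = 0.291) and without day 3 replicate 1, 2 or 3 or day 30 replicate 1 (adjusted p 0.0108 to 0.291 over 11 repeats), and under 4 other settings. These were quantile normalization (log2 change 1.93, adjusted p = 0.129), cyclic loess (1.63, adjusted p = 0.119), the highest floor (1.66, adjusted p = 0.184) and the authors' deposited table (2.04, adjusted p = 0.0682). Without scaling the change of miR-26a-5p was 3.35. Its sign turned positive under 4 alternative scalings, no scaling among them. It passed as higher in at least 1 of these (lowest limma adjusted p = 0.00509). With array brightness as a covariate the change of miR-26b-5p turned to -1.77 (adjusted p = 0.165).

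Day 7 against day 0 compared the same sorted population a week after injury with the uninjured heart, and neither member passed the test. miR-26a-5p averaged -0.46 ± 0.40 at day 7 (n = 3) and 0.17 ± 0.67 at day 0 (n = 2), a log2 change of -0.63 (95% interval -1.60 to 0.34, limma adjusted p = 0.339). miR-26b-5p averaged -2.96 ± 1.12 at day 7 and -2.49 ± 0.998 at day 0, a change of -0.47 (95% interval -1.82 to 0.88, limma adjusted p = 0.642). The groups overlapped for both members. Only 3.79% of all tested miRNAs passed here, 3.25% as higher and 0.542% as lower. The sign of both changes depended on the scaling. Without scaling they were 0.52 for miR-26a-5p and 0.68 for miR-26b-5p, with the percentile over all miRNAs 0.69 and 0.85, and with control features 0.55 and 0.71. The miR-26b-5p change was also positive with median scaling (0.0401), without day 0 replicate 1 (0.24) and without day 7 replicate 2 (0.18). With brightness as a covariate both members passed as lower, by -1.19 and -1.60 on the log2 scale (adjusted p = 0.034 and 0.0327).

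Day 30 against day 0 set Ly6clow/CX3CR1high macrophages of the late stage after injury against those of the uninjured heart. miR-26b-5p rose to -0.13 ± 0.23 at day 30 (n = 2), against -2.49 ± 0.998 at day 0 (n = 2), a log2 change of 2.36 (SE 0.68, 5.14-fold, limma adjusted p = 0.012), without overlap. Its change was the 16th highest of 369, in a comparison where 56.4% of miRNAs passed, 8.94% as higher and 47.4% as lower, and 78.3% did not overlap. miR-26a-5p averaged 0.79 ± 0.27 at day 30 and 0.17 ± 0.67 at day 0, a change of 0.61 (95% interval -0.45 to 1.68, limma adjusted p = 0.292), and the groups overlapped. Under 4 other scalings miR-26a-5p passed as higher. Its change was 1.42 with median scaling (adjusted p = 0.034), 3.56 with the percentile over all miRNAs (adjusted p = 0.0141), 4.54 with control features (adjusted p = 0.00056) and 4.94 without scaling (adjusted p = 0.00148). The miR-26b-5p call was lost without day 0 replicate 2 (log2 change 1.66, adjusted p = 0.0956) or day 30 replicate 1 (2.20, adjusted p = 0.0665), and under quantile normalization (2.69, adjusted p = 0.0635), cyclic loess (2.11, adjusted p = 0.0799) and the highest floor (2.36, adjusted p = 0.0874). With the brightness covariate both members turned negative (-1.89 for miR-26b-5p, adjusted p = 0.323, and -1.50 for miR-26a-5p, adjusted p = 0.31).

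Day 7 against day 3 compared the later Ly6clow/CX3CR1high macrophages with the early Ly6chigh/CX3CR1low ones. miR-26b-5p fell to -2.96 ± 1.12 at day 7 (n = 3), against -0.83 ± 0.33 at day 3 (n = 3), which is -2.13 on the log2 scale (SE 0.56, limma adjusted p = 0.0112), without overlap. This was among the lowest changes of the comparison (place 350 of 369 from the highest), in which 37.1% of miRNAs passed, 21.1% as higher and 16% as lower. miR-26a-5p averaged -0.46 ± 0.40 at day 7 and 0.03 ± 0.16 at day 3, and its groups did not overlap either, as for 64.2% of all tested miRNAs. Its change of -0.48 did not pass (95% interval -1.35 to 0.38, limma adjusted p = 0.321). It passed as lower without scaling (-2.83, adjusted p = 0.0137) and with control features (-2.29, adjusted p = 0.0123). The miR-26b-5p call held in each repeat that left out 1 array (-2.47 to -1.48) but not under quantile normalization (-2.22, adjusted p = 0.0684) or the highest floor (-2.13, adjusted p = 0.0638). With brightness as a covariate the change was 0.17 for miR-26b-5p (adjusted p = 0.841) and 0.66 for miR-26a-5p (adjusted p = 0.349).

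Day 30 against day 3 gave similar shifts of both members, neither of which passed. miR-26a-5p averaged 0.79 ± 0.27 at day 30 (n = 2) and 0.03 ± 0.16 at day 3 (n = 3), a log2 change of 0.76 (95% interval -0.21 to 1.73, limma adjusted p = 0.205). miR-26b-5p averaged -0.13 ± 0.23 at day 30 and -0.83 ± 0.33 at day 3, a change of 0.70 (95% interval -0.65 to 2.05, limma adjusted p = 0.415). The day 30 samples lay above the day 3 samples for both members, and groups did not overlap for 74.5% of all tested miRNAs. Of all tested miRNAs 30.9% passed, 9.76% as higher and 21.1% as lower. Fitted with only these groups, miR-26a-5p passed as higher (adjusted p = 0.0273).

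Day 30 against day 7, a comparison within the Ly6clow/CX3CR1high population after injury, was the one in which both members passed. miR-26b-5p rose to -0.13 ± 0.23 at day 30 (n = 2), against -2.96 ± 1.12 at day 7 (n = 3), a log2 change of 2.83 (SE 0.62, 7.12-fold, limma adjusted p = 0.00284). miR-26a-5p rose to 0.79 ± 0.27 at day 30, against -0.46 ± 0.40 at day 7, a change of 1.25 (SE 0.45, 2.37-fold, limma adjusted p = 0.0369). Neither member overlapped between the groups. In this comparison 47.7% of tested miRNAs passed, 13.6% as higher and 34.1% as lower, and 71.3% did not overlap, while the change of miR-26b-5p was the 14th highest of 369 and that of miR-26a-5p the 51st. The miR-26a-5p call was lost in 6 of 11 repeats that left out 1 array (adjusted p 0.01 to 0.257 over the 11), those without any one day 3 array, without day 30 replicate 1 (1.06) and without replicate 2 (1.02) or 3 (1.33) of day 7. It was also lost under cyclic loess (0.72, adjusted p = 0.0621) and without the detection filter (1.25, adjusted p = 0.0722). With brightness as a covariate the changes were -0.29 for miR-26b-5p (adjusted p = 0.819) and -0.30 for miR-26a-5p (adjusted p = 0.756).

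**Figure D2:**
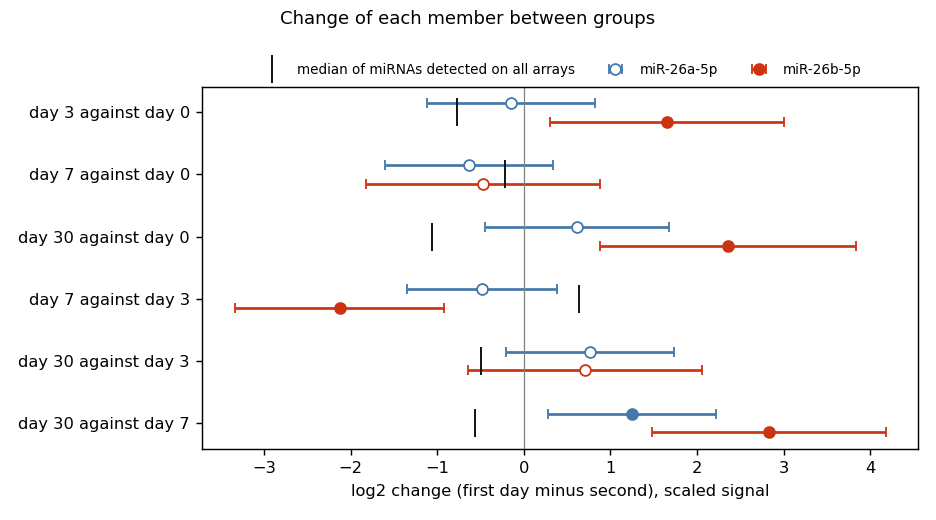
Log2 change of scaled signal for miR-26a-5p (blue) and miR-26b-5p (red) in the 6 comparisons, with 95% intervals. Filled points passed a limma adjusted p of 0.05, and black ticks give the median over the 126 miRNAs that every array detected. miR-26b-5p is filled in 4 comparisons, with changes from -2.13 to 2.83, and miR-26a-5p only in day 30 against day 7 (1.25).

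The ratio of the members within an array does not depend on any factor that scales a whole array. It shows only that the 2 signals changed unequally, and any part of a signal that does not scale in this way stays in it. The signal of miR-26a-5p was 5.39 and 7.46 times that of miR-26b-5p at day 0, 1.65, 2.06 and 1.76 times at day 3, 4.32, 10.1 and 4.18 times at day 7, and 1.93, 1.84 and 1.86 times at day 30. These multiples also carry the difference between the probes and are compared only between arrays. All day 3 and day 30 arrays had a lower ratio than all day 0 and day 7 arrays. On the log2 scale the ratio averaged 2.67 ± 0.33 at day 0 (n = 2), 0.86 ± 0.17 at day 3 (n = 3), 2.50 ± 0.72 at day 7 (n = 3) and 0.92 ± 0.04 at day 30 (n = 2). It differed among the groups (exact permutation test over 25200 assignments of the 10 samples, p = 0.0157). The test did not pass after quantile normalization (exact permutation p = 0.0719), or on the authors' deposited table (0.0757).

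Between pairs of groups, the log2 ratio differed by -1.80 between day 3 and day 0 arrays. Day 30 arrays differed from day 0 by -1.75 and from day 7 by -1.59, and day 7 arrays from day 3 by 1.64. None of these pairs overlapped, whereas day 7 against day 0 (-0.16) and day 30 against day 3 (0.06) did. Within slide 1 and slide 2 of the arrays, day 3 differed from day 0 by -1.66 and -1.85, and day 7 from day 3 by 1.32 and 2.29. There day 30 differed from day 0 by -1.49 and -2.01 and from day 7 by -1.14 and -2.45. Each slide 2 value set 1 sample against 1, and each slide 1 value set 1 or 2 samples against 1 or 2. The slide 2 samples of day 0 and day 7 were the dimmest of their groups. With both dimmest arrays of day 0 and day 7 left out, a setting added after the values were seen, the ratio still differed among the groups (exact permutation p = 0.00833).

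**Figure D3:**
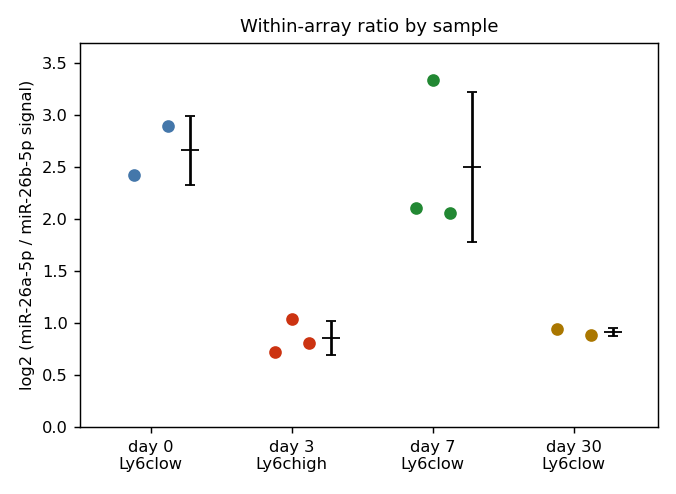
Log2 ratio of the miR-26a-5p to the miR-26b-5p signal within each array, for the 10 samples in 4 groups. Points are samples and the bars give mean and SD. Day 3 and day 30 samples sit between 0.72 and 1.04 and day 0 and day 7 samples between 2.06 and 3.34.

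Groups with dim arrays had higher ratios than groups with bright arrays, while within groups the order of brightness and ratio varied. The 5 arrays of day 0 and day 7 had brightness of 55.7 to 323 scanner units and ratios of 4.18 to 10.1, and the 6 arrays of day 3 and day 30 had brightness of 805 to 2304 and ratios of 1.65 to 2.06. In day 0, day 3 and day 7 the dimmest array had the highest ratio of its group, and in day 30 the brightest array had it. The lowest ratio of day 3 and of day 7 was not on the brightest array. The groups do not overlap in brightness between these sets, so that no group pair across them could be compared at equal brightness. With brightness as a covariate the log2 ratio of day 3 differed from that of day 0 by -0.0803, and that of day 30 from day 0 by 0.39. That fit extends slopes within groups across a gap in brightness, so brightness and group cannot be told apart there. The part of brightness in the ratio was not tested.

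**Figure D4:**
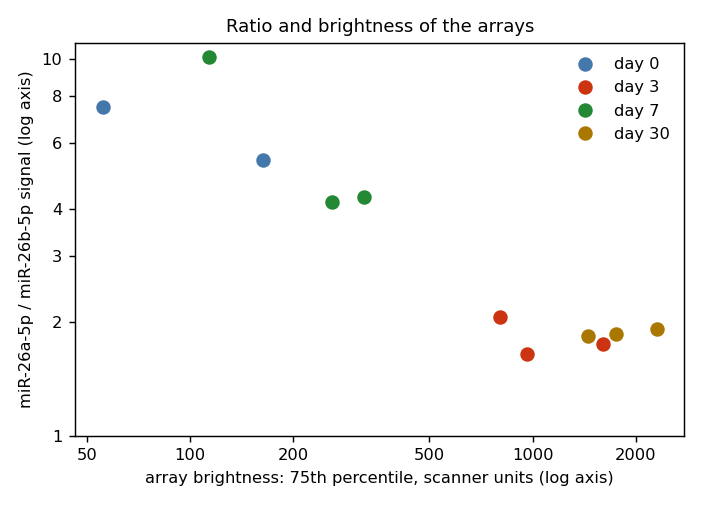
Ratio of the miR-26a-5p to the miR-26b-5p signal against array brightness (75th percentile over the 126 miRNAs that every array detected), both on log axes, for the 11 arrays coloured by day. The 5 arrays of day 0 and day 7 lie at the dim end with ratios of 4.18 to 10.1, and the 6 arrays of day 3 and day 30 at the bright end with ratios of 1.65 to 2.06.

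The passenger arms miR-26a-1-3p, miR-26a-2-3p and miR-26b-3p, the strands usually discarded after processing, were detected on 0 of 11 arrays. Their signals of 0.839 to 1.97 scanner units equalled the scanner's own error on every array. The arrays therefore gave no level for the arms that would tell the Mir26a-1 and Mir26a-2 hairpins apart.

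Other miRNAs that Myc represses in lymphoma cells were read beside the family, as 20 miRNAs on the array, all tested. At day 30 against day 0, 8 of 20 rose and 0 fell, where 8.94% of all 369 tested rose and 47.4% fell (list median 1.03, against -1.37 over all tested). They included miR-29b-3p and miR-29c-3p, repressors of collagen genes, with log2 changes of 3.57 (limma adjusted p = 0.00164) and 2.14 (adjusted p = 0.00685), miR-30e-5p (2.41, adjusted p = 0.0183) and miR-15a-5p, a repressor of Bcl2 (2.18, adjusted p = 0.00394). At day 30 against day 7, 10 rose and 1, the lymphoid miR-150-5p, fell, where 13.6% of all rose and 34.1% fell (median 1.16, against -0.68). At day 3 against day 0, 5 rose, among them miR-16-5p (1.73, adjusted p = 0.0116), and 2 fell, among them miR-146a-5p, a brake on Toll-like receptor signalling (-4.59, adjusted p = 0.000357). There 16.3% of all rose and 39% fell, and the list median was 0.44, against -0.79. At day 7 against day 3, 7 fell and 2 rose, where 16% of all fell and 21.1% rose (median -0.75, against 0.61). None of the 20 passed at day 7 against day 0, where 3.25% of all rose and 0.542% fell (median -0.29, against -0.51). At day 30 against day 3, 5 rose and 1 fell, where 9.76% of all rose and 21.1% fell (median 0.72, against -0.41).

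These counts of the Myc list moved with the scaling and with brightness. At day 30 against day 0, 20 rose without scaling, where 276 of all 369 tested miRNAs rose. With cyclic loess 4 of the list rose, where 34 of all 369 did, and 10 rose in the authors' table, where 83 of 317 did. With brightness as a covariate 0 rose and 0 fell, as among all 369 tested miRNAs, and the list median was -0.39. In the same fit it was -0.13 for day 30 relative to day 7 and -0.53 for day 3 relative to day 0.

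Of 5 other miRNAs known to repress Ezh2, 3 were tested, and miR-124-3p and miR-138-5p were detected on 0 arrays. miR-101a-3p rose in day 30 macrophages, where 3 of 3 arrays detected it, at least 11.5-fold over day 0 (0 of 2 arrays, limma adjusted p = 0.00591) and at least 28.6-fold over day 7 (0 of 3 arrays, adjusted p = 0.000513). Each such lower bound sets the detecting group's mean against the detection limit of the other group's arrays. Over day 3, which detected it on 2 of 3 arrays, its log2 change was 4.37 (adjusted p = 0.00187). miR-101b-3p_v20.0 rose as well, by at least 4.66-fold over day 7 (adjusted p = 0.0124) and by a log2 change of 2.35 over day 3 (adjusted p = 0.0241). Over day 0 its log2 change of 1.09 did not pass (adjusted p = 0.233). miR-214-3p, also a stromal miRNA, rose in day 7 macrophages by at least 5.46-fold over day 0 (adjusted p = 0.0393) and by a log2 change of 2.79 over day 3 (adjusted p = 0.0033). It fell in day 30 macrophages by a log2 change of -3.09 relative to day 7 (adjusted p = 0.00175). None of the 3 passed at day 3 against day 0, where 55.3% of all tested miRNAs did. The floor bears on these low signals: with the highest floor the count at day 7 against day 0 was 0, where 12 of all 369 were higher and 5 lower.

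Markers of the sorted cells and of other cell types moved beside the members. The leukocyte list summed to a scaled signal (signal divided by the array's 75th percentile) of 5.58 to 9.39 on day 0 arrays, 36.1 to 37.9 on day 3 arrays, 7.27 to 11.1 on day 7 arrays and 21.8 to 23.0 on day 30 arrays. Its 5 members were all higher at day 3 against day 0, where 16.3% of all tested miRNAs were, and 3 of 5 were higher at day 30 against day 0, where 8.94% were. At day 7 against day 3, 4 of 5 were lower (16% of all), and 4 of 5 were higher at day 30 against day 7 (13.6% of all). miR-142a-3p, found in all blood lineages, rose by a log2 change of 2.82 at day 3 against day 0 (limma adjusted p = 0.00237) and of 3.63 at day 30 against day 0 (adjusted p = 0.00129). In the same comparisons miR-21a-5p rose by 3.47 (adjusted p = 0.000149) and 2.86 (adjusted p = 0.000982). miR-142a-5p, detected on 0 of 2 day 0 arrays, rose at least 5.61-fold (adjusted p = 0.00864) and 18.0-fold (adjusted p = 0.00153). At day 30 against day 0, miR-223-3p (0.32, adjusted p = 0.563) and miR-155-5p (0.74, adjusted p = 0.268) did not pass. Day 3 and day 30 are the groups in which miR-26b-5p was high, and they also had the brightest arrays. Over the 10 samples log2 brightness correlated with miR-26b-5p at r = 0.909, with miR-142a-3p at 0.974 and with miR-223-3p at 0.651. The parts of the leukocyte signal and of brightness in the level of miR-26b-5p were not tested.

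Markers of other cells had lower sums than the leukocyte list. The cardiomyocyte list summed to 0.137 to 0.264 on day 0 arrays, 0.0249 to 0.0441 on day 3 arrays, 0.0917 to 0.131 on day 7 arrays and 0.0566 to 0.0798 on day 30 arrays, and 3 of its 6 members (miR-208a-3p, miR-208b-3p and miR-499-5p) were detected on 0 arrays. Its miR-133a-3p and miR-133b-3p fell at day 3 and day 30 against day 0, where miR-26b-5p rose and 39% and 47.4% of all tested miRNAs fell. They also fell at day 30 against day 7 (log2 changes of -1.46 and -1.36, limma adjusted p = 0.0143 and 0.0237), where 34.1% of all fell. At day 7 against day 3, where miR-26b-5p fell, both rose (2.21 and 2.17, adjusted p = 0.00177 and 0.00222), as 21.1% of all did. The cardiomyocyte marker miR-1a-3p, detected on 6 arrays and on neither of day 0, rose in day 30 macrophages by a log2 change of 2.14 over day 3 (adjusted p = 0.0343) and of 1.88 over day 7 (adjusted p = 0.039), and did not pass over day 0 (adjusted p = 0.247). Fibroblast and smooth muscle markers summed to 0.0674 to 0.126 on day 0 arrays, 0.0866 to 0.113 on day 3 arrays, 0.176 to 0.433 on day 7 arrays and 0.196 to 0.213 on day 30 arrays, with miR-145a-5p never detected. Its miR-199a-3p, detected on 10 arrays, rose over day 0 by log2 changes of 1.29 in day 3 (limma adjusted p = 0.0192), 2.09 in day 7 (adjusted p = 0.0227) and 2.47 in day 30 macrophages (adjusted p = 0.00168). It also rose in day 30 over day 3 macrophages by 1.18 (adjusted p = 0.0459). Of the 4 tested markers of this list, 1 was higher and 1 lower at day 3 against day 0, where 16.3% and 39% of all tested miRNAs were. The lower one, miR-143-3p (-1.64, adjusted p = 0.0417), was detected on 0 of 2 day 0 arrays. At day 7 against day 0, 2 of 4 were higher (3.25% of all). At day 30 against day 0, 1 of 4 was (8.94% of all), while miR-143-3p (-0.59) and miR-214-3p (-0.46) did not pass. The 2 endothelial markers summed to 0.0738 to 0.442 and the 3 lymphocyte markers to 0.138 to 0.322 over all arrays. On day 7 arrays these sums (0.298 to 0.346 and 0.211 to 0.279) exceeded the scaled signal of miR-26b-5p (0.0524 to 0.206). On day 0 arrays the ranges overlapped, and on day 3 and day 30 arrays both sums lay below miR-26b-5p (0.437 to 1.02). Of 2 erythroid markers miR-144-3p was never detected, and their sum was 0.0183 to 0.0505 on day 0 arrays, 0.0311 to 0.0576 on day 3 arrays, 0.0111 to 0.0216 on day 7 arrays and 0.0825 to 0.106 on day 30 arrays. The other, miR-451a, was detected on 0 of 2 day 0 arrays and passed in the same direction as miR-26b-5p in each comparison in which that member passed. It rose at least 2.62-fold in day 3 macrophages over day 0 (limma adjusted p = 0.03) and at least 5.44-fold in day 30 macrophages over day 0 (adjusted p = 0.00532). Its log2 change was -2.38 in day 7 relative to day 3 macrophages (adjusted p = 0.00355) and 3.43 in day 30 relative to day 7 (adjusted p = 0.000513). The part of these cells in the levels of the members was not tested.

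The miRNAs with the pattern most like each member were found by Pearson correlation of scaled log2 signal over the 10 samples, among 125 others detected on all arrays. These samples share scaling and brightness, so that the correlations are a description. For miR-26a-5p the closest were miR-30b-5p (r = 0.946), miR-30c-5p (0.945), miR-23a-3p (0.934), miR-350-3p (0.934) and miR-29c-3p (0.896). All 5 had their lowest group mean at day 7 and their highest at day 30, as miR-26a-5p did. The least like were miR-202-3p (-0.915), miR-1224-5p (-0.903) and miR-188-5p (-0.902), which had their lowest means at day 30.

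For miR-26b-5p the closest were miR-29a-3p (r = 0.965), miR-107-3p (0.949), miR-142a-3p (0.946), miR-19b-3p of the miR-17-92 cluster (0.934) and miR-15a-5p (0.934). Each had higher means at day 3 and day 30 than at day 0 and day 7. The mean log2 level of miR-142a-3p was -2.72 at day 0, 0.10 at day 3, -2.64 at day 7 and 0.91 at day 30. The least like were miR-721 (-0.951), miR-3473b (-0.940) and miR-296-5p (-0.933), with their lowest means at day 30. The 2 members correlated with each other at 0.83, which placed miR-26b-5p eighth for miR-26a-5p. Of the 5 named, 2 to 4 stayed among the closest 5 of miR-26a-5p and 1 to 5 among those of miR-26b-5p under 6 other scalings.

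**Figure D5:**
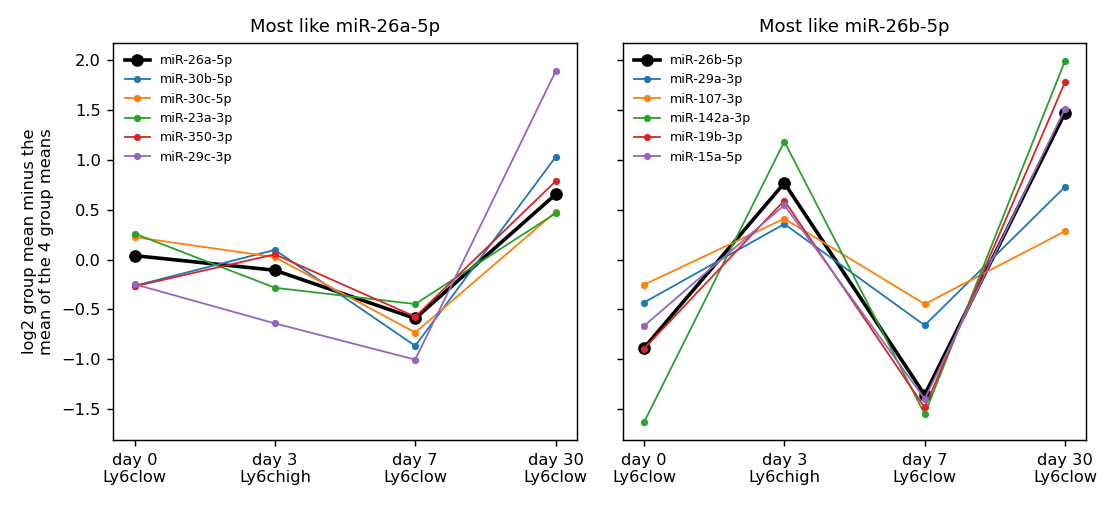
Group means of log2 scaled signal, each centred on the mean of its 4 group means, for miR-26a-5p (left, black) and miR-26b-5p (right, black) with the 5 miRNAs of highest correlation over 10 samples. The left set is lowest at day 7 and highest at day 30, and the right set is higher at day 3 and day 30 than at day 0 and day 7.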

How the data were processed

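Per the labels' protocols, each array received 100 ng of Cy3-labelled total RNA. Scanning software was Agilent Feature Extraction, per the submitters' processing notes. The deposited scanner files hold, per the file headers, the summed intensity of each miRNA in scanner units, its error and a detection flag, for 1247 miRNAs and 21 controls. The authors' deposited table holds log2 values of 317 miRNAs, normalized by a method that no label states.

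Intensities were divided by the array's 75th percentile among the 126 miRNAs with detection on every array, raised to a floor of 0.00271 (the median of the arrays' lowest detected scaled signals) and logged. limma 3.58.1 (R 4.3.3) fitted 369 miRNAs detected on at least 2 arrays, with all 4 groups, 10 samples and 6 residual degrees of freedom. Benjamini-Hochberg adjustment ran over all 369 miRNAs, with a threshold of 0.05. The fit was tested on simulated data. Slides were inferred from a number in the names of the deposited scanner data, not from a label. The members and lists were chosen with earlier results of these data known. Named miRNAs were the members, the 5 most and 3 least correlated with each, the passenger arms and up to 4 members of a list, taken by size among those that passed. Some list members that did not pass were named beside them.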

Additional observations from a re-analysis of the deposited data

How the results depend on the processing

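Of 515 repeats of 21 results, 427 kept direction and side of the threshold, 28 lost a call, 21 gained one, 33 changed sign and 6 moved by more than the spread between samples. Changes below are log2 values, named by member or by the ratio of miR-26a-5p to miR-26b-5p, and the cause of each difference was not tested. Without scaling, the changed log2 values were day 3 over day 0 miR-26a-5p 3.35, day 7 over day 0 miR-26a-5p 0.52, day 7 over day 0 miR-26b-5p 0.68, day 30 over day 0 miR-26a-5p 4.94, day 7 over day 3 miR-26a-5p -2.83, and the miR-26a-5p F test had adjusted p = 0.00233. With the percentile taken over all miRNAs, the changed log2 values were day 3 over day 0 miR-26a-5p 2.39, day 7 over day 0 miR-26a-5p 0.69, day 7 over day 0 miR-26b-5p 0.85, day 30 over day 0 miR-26a-5p 3.56, and the miR-26a-5p F test had adjusted p = 0.026. With median scaling, the changed log2 values were day 3 over day 0 miR-26a-5p 0.37, day 7 over day 0 miR-26b-5p 0.0401, day 30 over day 0 miR-26a-5p 1.42, and the miR-26a-5p F test had adjusted p = 0.0416. Scaled to control features, the changed log2 values were day 3 over day 0 miR-26a-5p 2.84, day 7 over day 0 miR-26a-5p 0.55, day 7 over day 0 miR-26b-5p 0.71, day 30 over day 0 miR-26a-5p 4.54, day 7 over day 3 miR-26a-5p -2.29, and the miR-26a-5p F test had adjusted p = 0.00106. With quantile normalization, the changed log2 values were day 3 over day 0 miR-26b-5p 1.93, day 30 over day 0 miR-26b-5p 2.69, day 7 over day 3 miR-26b-5p -2.22, day 30 over day 0 log2 ratio -2.25, day 30 over day 3 log2 ratio -0.18, and the miR-26b-5p F test had adjusted p = 0.0536 and the ratio test had exact permutation p = 0.0719. With cyclic loess, the changed log2 values were day 3 over day 0 miR-26b-5p 1.63, day 30 over day 0 miR-26a-5p -0.0416, day 30 over day 0 miR-26b-5p 2.11, day 30 over day 7 miR-26a-5p 0.72, day 30 over day 3 log2 ratio -0.35. In the authors' deposited table, the changed log2 values were day 3 over day 0 miR-26b-5p 2.04, day 30 over day 0 log2 ratio -2.34, day 30 over day 3 log2 ratio -0.15, day 30 over day 7 log2 ratio -2.04, and the ratio test had exact permutation p = 0.0757. With the highest floor, the changed log2 values were day 3 over day 0 miR-26b-5p 1.66, day 30 over day 0 miR-26b-5p 2.36, day 7 over day 3 miR-26b-5p -2.13, and the miR-26b-5p F test had adjusted p = 0.0531. Without the detection filter, the changed log2 values were day 30 over day 7 miR-26a-5p 1.25. With slide as a block, the changed log2 values were day 30 over day 3 log2 ratio -0.0307, and the miR-26a-5p F test had adjusted p = 0.0276. With 11 separate arrays, the miR-26a-5p F test had adjusted p = 0.0479. With brightness as a covariate, the changed log2 values were day 3 over day 0 miR-26b-5p -1.77, day 7 over day 0 miR-26a-5p -1.19, day 7 over day 0 miR-26b-5p -1.60, day 30 over day 0 miR-26a-5p -1.50, day 30 over day 0 miR-26b-5p -1.89, day 7 over day 3 miR-26a-5p 0.66, day 7 over day 3 miR-26b-5p 0.17, day 30 over day 3 miR-26b-5p -0.11, day 30 over day 7 miR-26a-5p -0.30, day 30 over day 7 miR-26b-5p -0.29, day 3 over day 0 log2 ratio -0.0803, day 7 over day 0 log2 ratio 0.41, day 30 over day 0 log2 ratio 0.39, day 7 over day 3 log2 ratio 0.49, day 30 over day 7 log2 ratio -0.0191, and the miR-26a-5p F test had adjusted p = 0.0267. With only the groups compared, the changed log2 values were day 30 over day 3 miR-26a-5p 0.76. Without the dimmest day 0 and day 7 arrays (added after the data were seen), the changed log2 values were day 30 over day 3 miR-26a-5p 0.76, and the miR-26a-5p F test had adjusted p = 0.0204. The replicate numbers did not meet the bar for pairing (correlation of deviations -0.25 to 0.50, over 0.1 in 6 of 15 pairs), although in every group the sample on slide 2 was the lowest for both members. The replicate block, fitted with 11 separate arrays, brought the miR-26a-5p F test to adjusted p = 0.0299 and altered no other call. Leaving out each of 11 arrays in turn gave these ranges: day 3 over day 0 miR-26a-5p -0.62 to 0.32, day 3 over day 0 miR-26b-5p 0.95 to 2.36, day 7 over day 0 miR-26a-5p -1.10 to -0.16, day 7 over day 0 miR-26b-5p -1.18 to 0.24, day 30 over day 0 miR-26a-5p 0.14 to 1.09, day 30 over day 0 miR-26b-5p 1.66 to 3.07, day 7 over day 3 miR-26a-5p -0.63 to -0.26, day 7 over day 3 miR-26b-5p -2.47 to -1.48, day 30 over day 3 miR-26a-5p 0.57 to 0.83, day 30 over day 3 miR-26b-5p 0.53 to 0.85, day 30 over day 7 miR-26a-5p 1.02 to 1.39, day 30 over day 7 miR-26b-5p 2.19 to 3.17, miR-26a-5p F test adjusted p 0.0288 to 0.407, miR-26b-5p F test adjusted p 0.00124 to 0.0203, ratio test exact permutation p 0.00556 to 0.0365, day 3 over day 0 log2 ratio -2.04 to -1.57, day 7 over day 0 log2 ratio -0.58 to 0.0736, day 30 over day 0 log2 ratio -1.98 to -1.51, day 7 over day 3 log2 ratio 1.23 to 1.86, day 30 over day 3 log2 ratio -0.0116 to 0.15, day 30 over day 7 log2 ratio -1.81 to -1.17. A group left with 1 sample is assumed there to vary like the others. On the dimmest day 0 and day 7 arrays miR-26b-5p gave 6.07 and 5.96 scanner units. Without the dimmest day 0 array its change over day 0 shrank from 1.66 to 0.95 in day 3 macrophages. In day 30 macrophages it shrank from 2.36 to 1.66. Day 0 then rests on 1 sample.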
